A study of Mus musculus with 19 samples.

Results

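The transcription factor p53 and 9 genes it is known to activate were followed across a mouse stem cell and blastoid experiment. The 10 genes were Trp53, which encodes p53, and Mdm2, Cdkn1a, Ccng1, Btg2, Plk2, Ddit4l, Phlda3, Trp53inp1 and Sesn1, picked by name from 54352 gene symbols. These genes and all lists below were chosen with earlier results of these data known. Comparisons of their counts with those of all genes are therefore descriptions only. All 10 passed the filter on low counts in every comparison. Polyadenylated RNA was sequenced with Smart-seq2, a full-length method that relies on PCR and carries no molecular identifiers. TT2 is a mouse embryonic stem cell line grown on a layer of inactivated mouse embryonic fibroblasts (feeder cells). In flat (2D) culture, 2 control libraries received no treatment and 2 libraries received 20 nM pladienolide B (PlaB) for 6 h, starting 48 h after seeding, and all 4 carry the time 54 h. Blastoids are stem cell aggregates that resemble the blastocyst, and 3 libraries were made on each of days 1 to 5 of their culture in 3D microwells. Every blastoid library is labelled as derived from TT2 cells treated with PlaB for 6 h, so no blastoid group without PlaB was available for comparison. The labels name 1 cell line and leave unsaid whether replicate libraries were separate cultures, so the p-values rest on a spread between libraries that may be technical.

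In unstressed cells p53 protein is kept low because MDM2, a ubiquitin ligase, marks it for destruction. When DNA damage, disturbed ribosome assembly or blocked transcription and splicing interrupt that control, p53 accumulates, binds response elements in DNA and switches on genes that halt the cell cycle, repair damage, limit growth signalling or start cell death. Mdm2 is one of those genes, which closes a feedback loop. Control acts mainly on the protein, which RNA counts do not measure. PlaB binds the SF3B complex of the spliceosome and blocks splicing.

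The 19 libraries held 2515381 to 4118725 counts in 2D culture and 3684787 to 7607021 in blastoids. Levels are given as CPM (counts scaled to library size) on one scale for all libraries, and one gene's CPM is not set against another's because genes differ in length. Base composition, cell type markers and the mitochondrial share of counts differed between groups. The level of the 25% most GC-rich genes relative to the 25% most GC-poor had group means on the log2 scale of -1.02 for control, 0.18 for PlaB, and 0.97, 0.18, -0.74, 0.51 and -0.29 for days 1 to 5 in turn. Values from a fit with this GC trend removed therefore stand beside many of the results. The summed level of 20 feeder fibroblast markers was 5738 to 6575 CPM in control and 6822 to 9032 CPM in PlaB libraries, 497 to 890 CPM on day 1 and 69.3 to 101 CPM on day 5. In each 2D library at most 1 of the 20 was at 0, and 15 rose and 1 fell after PlaB among 18 tested. The sum of 12 pluripotency markers was 21572 to 23592 CPM in control and 15586 to 15843 CPM after PlaB, with none at 0 in any library. It was 5739 to 7367 CPM on day 1, 8105 to 20876 CPM on day 3 and 5102 to 9446 CPM on day 5. Their median on the log2 scale was 7.01 to 7.04 in control and 7.54 to 7.94 on day 1. The sum of 10 trophectoderm markers was 73.4 to 102 CPM in control, 307 to 496 CPM on day 1 and 94.4 to 175 CPM on day 2. It was 54.5 to 82.3 CPM on day 3, 922 to 995 CPM on day 4 and 1033 to 2044 CPM on day 5. For 8 primitive endoderm markers the sum was 69.1 to 72.1 CPM in control and 22.2 to 25.3 CPM on day 5. In bulk RNA, fewer cells of a type and less RNA per cell cannot be told apart. Day 3 replicate 3 stood apart, with 13.5% of its counts from mitochondrial genes against 2.60% to 9.38% elsewhere.

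A p53 response element consists of 2 adjacent half-sites of 10 bases. It was searched, on both strands, in windows from 250 bases before to 50 bases after the start of 27025 RefSeq genes (GRCm38.p6), with the C and G of the core CNNG of each half-site kept and at most 1 mismatch at the other positions. That allowance was set after the Cdkn1a site had been seen. Of 32851 windows, 22 held a match (0.067%). Windows were available for 9 of the 10 genes, all but Trp53inp1, and 2 of these genes held a match. Both stretches are shown, each 5′ to 3′ along its gene, because these 2 genes share the match and yet differed in their response to PlaB, as described further on. Capitals mark the matched element.
Cdkn1a: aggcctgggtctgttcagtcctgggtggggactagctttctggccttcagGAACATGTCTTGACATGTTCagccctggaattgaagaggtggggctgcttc
Ccng1: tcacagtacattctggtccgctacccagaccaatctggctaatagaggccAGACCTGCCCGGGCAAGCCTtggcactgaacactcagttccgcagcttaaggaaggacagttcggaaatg
The Cdkn1a stretch lies on the plus strand at chr17:29090878-29090978, and its element spans bases -51 to -32 relative to the start. The Ccng1 stretch lies on the minus strand at chr11:40755412-40755531, and its element spans bases -195 to -176. Among 40 other p53 targets with a window, Gtse1 and Rps27l held a match. With 2 mismatches allowed, 107 windows matched (0.326%) and the same 2 of the 9 genes were found. A match describes the letters only, and elements outside the windows were not searched.

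Trp53 itself (chromosome 11, 69580359 to 69591873, GRCm38) had a modest level in 2D culture and was most abundant in day 1 aggregates. It was measured at 27.8 and 46.4 CPM in the control libraries and at 85.1 and 77.8 CPM after PlaB. Blastoid libraries of day 1 held 375, 331 and 299 CPM, those of day 2 held 158, 181 and 183 CPM, and those of day 3 held 98.2, 70.7 and 20.9 CPM. Day 4 gave 73.3, 116 and 143 CPM, and day 5 gave 39.2, 53.8 and 79.6 CPM. Levels were thus high at first and lower, with wide spread, later. Day 1 and day 2 libraries did not overlap with each other or with those of any other group. The next groups in the order of mean levels (day 4, PlaB, day 3, day 5 and control) each overlapped with their neighbour. The low value of 20.9 CPM on day 3 came from the replicate with the high mitochondrial share. The highest group mean was 9.03 times the lowest. Day 1 was highest and control lowest both for Trp53 and for the GC measure above. With the GC trend removed, Trp53 on day 1 was higher than in control by 2.36 on the log2 scale, against 3.18 as counted. The part of GC in the order of all groups was not tested. The longest annotated transcript of Trp53 has a GC content of 53.3%.

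**Figure D1:**
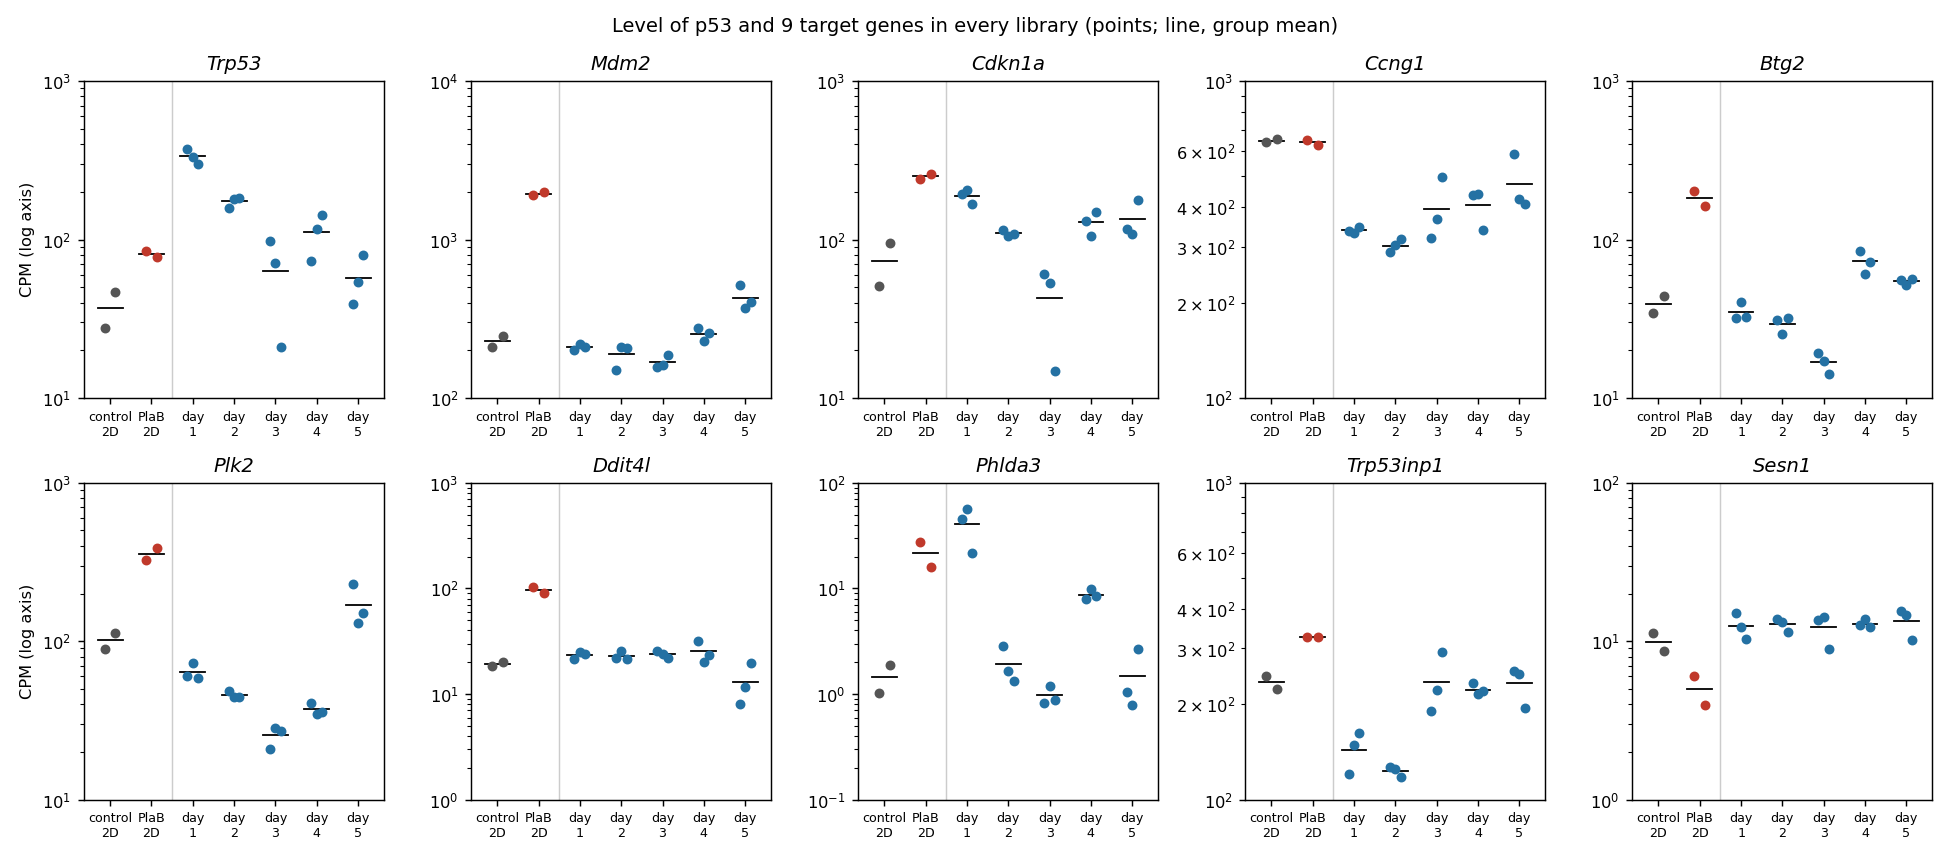
Level of each of the 10 genes in every library (points, CPM on a log axis) by group, with group means as lines: 2 libraries per 2D group and 3 per blastoid day. Mdm2 lies near 1940 CPM in both PlaB libraries and at or below 517 CPM in all others, whereas Trp53 is highest on day 1.

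PlaB and control cells were compared to ask what the treatment did to the transcriptome in 2D culture. After 6 h, 8 of the 10 genes were higher, 0 were lower, and Ccng1 and Sesn1 did not pass an adjusted p of 0.05. Over all 11183 genes tested, 51.7% passed, 25.9% of them higher and 25.8% lower as shares of the genes tested. The median log2 fold change was 1.80 for the 10 genes and 0.00 for all genes tested. Libraries of the 2 groups did not overlap for 9 of the 10 genes, against 76.3% of all genes. The summed level of the 10 genes was 1330 and 1451 CPM in control and 3866 and 3938 CPM after PlaB. Mdm2 made up 15.8% and 16.9% of the sum in control but 49.1% and 50.4% after PlaB. Genes are not scaled for length in this sum, so its shares are compared between groups only. Feeder markers rose in the same libraries, as given above, and the mitochondrial share of counts was 5.74% and 6.18% in control and 9.14% and 9.38% after PlaB. The part of either in these changes was not tested.

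Mdm2, the ligase gene of the feedback loop (chromosome 10, 117688875 to 117710758), showed the smallest adjusted p among the 10. Its level was 210 and 245 CPM in control and 1898 and 1983 CPM after PlaB. No control library came near either PlaB library, and the difference was 8.52-fold (log2 fold change 3.09 ± 0.13 SE, adjusted p = 9.73e-20, edgeR quasi-likelihood test, here and for single genes below). Trp53 rose by 1.14 ± 0.21 on the log2 scale (2.2-fold, adjusted p = 2.43e-05). With the GC trend removed, the rise of Trp53 was 0.58 (adjusted p = 0.0158), while that of Mdm2 was 3.30 (adjusted p = 4.86e-21). Leaving out single libraries moved the Trp53 value between 0.78 and 1.51. Such fits leave 1 library in a group, so only the size is given here.

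Among the genes that halt or slow the cell cycle, Cdkn1a, Btg2 and Plk2 rose. Cdkn1a, which encodes the cyclin-dependent kinase inhibitor p21 (chromosome 17, 29090976 to 29100727), stood at 50.7 and 94.7 CPM in control and at 241 and 260 CPM after PlaB. Its libraries did not overlap, and it rose by 1.79 ± 0.20 (adjusted p = 7.66e-07), or by 1.08 without the GC trend (adjusted p = 8.32e-06). Exons of AC167363.2 on the opposite strand overlap Cdkn1a, and since no strand setting of the counting is given, reads of the pair cannot be told apart. Btg2, an antiproliferative gene that acts in mRNA turnover (chromosome 1, 134075170 to 134079120), was at 34.2 and 43.7 CPM in control and at 203 and 163 CPM after PlaB, a rise of 2.23 ± 0.17 (adjusted p = 4.63e-13). Plk2, a polo-like kinase gene (chromosome 13, 110395046 to 110400844), was at 90.0 and 113 CPM in control and at 325 and 386 CPM after PlaB, a rise of 1.81 ± 0.15 (adjusted p = 1.12e-12). Both genes were clearly separated between the groups, and GC correction changed their values little (2.11 for Btg2 and 1.88 for Plk2).

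Ccng1 encodes cyclin G1, which recruits a phosphatase to MDM2 (chromosome 11, 40748552 to 40755311). It was at 640 and 655 CPM in control and at 650 and 631 CPM after PlaB, so the libraries overlapped (log2 fold change -0.02 ± 0.12, adjusted p = 0.915). Its sign turned without the GC trend, and it was higher by 0.48 (adjusted p = 0.00139). The longest annotated transcript of Ccng1 has a GC content of 40.8%, against 54.4% for Cdkn1a, the other gene with a matched element before its start. Per kilobase of exon, Ccng1 already had the highest level of the 10 genes in control cells, at 184 CPM per kilobase against 44.8 for Mdm2 and 20.5 for Cdkn1a. After PlaB, Mdm2 had the highest level, at 382 CPM per kilobase.

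Among the genes that curb growth signalling, Phlda3 and Ddit4l rose. Phlda3, whose product keeps the kinase AKT from the membrane (chromosome 1, 135766119 to 135769136), had 4 and 7 counts in the control libraries and 63 and 40 after PlaB. These correspond to 1.02 and 1.89 CPM in control and 27.2 and 15.8 CPM after PlaB, with no overlap. The rise was 3.85 ± 0.49 (adjusted p = 3.27e-08), or 2.31 without the GC trend (adjusted p = 0.000202). Phlda3 had the highest GC content of the 10 genes, 62.6%. Ddit4l, an inhibitor of mTORC1 signalling (chromosome 3, 137621612 to 137628333), was at 18.6 and 20.2 CPM in control and at 104 and 89.7 CPM after PlaB. It rose by 2.31 ± 0.21 (4.97-fold, adjusted p = 1.21e-11), and by 2.51 without the GC trend.

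The remaining pair act in autophagy and in the response to oxidative stress. Trp53inp1, a cofactor of p53 that also acts in autophagy (chromosome 4, 11156431 to 11174379), was at 246 and 223 CPM in control and at 327 CPM in both PlaB libraries. It rose by 0.47 ± 0.13 (adjusted p = 0.00299), and by 1.03 without the GC trend (adjusted p = 2.48e-08). Its call ended without control replicate 2 (0.37, adjusted p = 0.0741). Sesn1, a sestrin gene of the antioxidant and mTORC1 response (chromosome 10, 41809935 to 41908424), went the other way, with 44 and 32 counts in control (11.2 and 8.64 CPM) and 14 and 10 after PlaB (6.05 and 3.95 CPM). Libraries did not overlap, yet at this depth the log2 fold change of -0.996 ± 0.46 did not pass (adjusted p = 0.0697). It passed without the GC trend (-1.13, adjusted p = 0.0414), and its value was -1.33 without PlaB replicate 1.

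**Figure D2:**
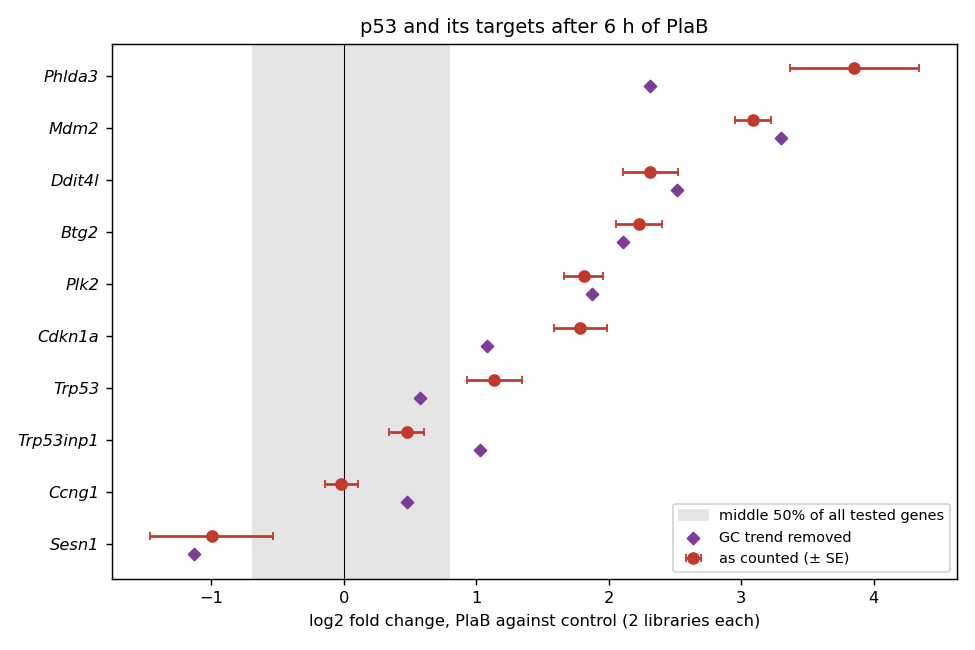
Log2 fold change of each gene after PlaB against control (2 libraries each), as counted (circles with SE) and with the GC trend removed (diamonds); the grey band holds the middle 50% of all genes tested. Mdm2 (3.09 and 3.30) hardly moves with GC, Phlda3 (3.85 and 2.31) and Cdkn1a (1.79 and 1.08) become smaller, and Ccng1 (-0.02 and 0.48) changes sign.

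Further p53 targets rose more often than they fell after PlaB. Of 50 listed targets outside the 10 genes, 40 were tested, of which 23 rose, 9 fell and 8 did not pass, with a median log2 fold change of 0.83 against 0.00 for all genes. Over all genes tested, 25.9% rose and 25.8% fell, and the counts by role below stand against the same shares. The counts of the 40 were 16 and 6 without the GC trend. The 9 that fell became 4 with DESeq2, 5 without control replicate 1 and 4 without control replicate 2. Differences between roles were not tested.

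Targets of cell cycle arrest and feedback rose in 6 of 7 tested, and 0 fell (median 1.11). Sfn, which encodes 14-3-3σ, a protein that holds cells before mitosis, rose from 1.20 to 21.8 CPM (4.16 ± 0.50, adjusted p = 1.34e-08). Psrc1 rose by 1.86 ± 0.28, and the stress gene Gadd45a by 1.11 ± 0.19. Of 15 targets linked to cell death, 6 rose, 3 fell and 6 did not pass (median 0.33). Siva1, a proapoptotic gene, rose from 48.7 to 276 CPM (2.5 ± 0.16, adjusted p = 6.15e-15). Pidd1, a scaffold for caspase activation, rose by 3.46 ± 0.63 (5.29 without control replicate 2) and Shisa5 by 1.66 ± 0.27 (0.93 without the GC trend), whereas Rps27l fell by 0.46, Eda2r by 0.62 and Triap1 by 0.51. Without the GC trend the calls of Rps27l (adjusted p = 0.711) and Eda2r (adjusted p = 0.605) ended, that of Eda2r ended also without control replicate 1 (adjusted p = 0.127), and that of Triap1 ended without any 1 of the 4 libraries (adjusted p up to 0.169), with no filter on low counts (adjusted p = 0.0566) and with DESeq2 (adjusted p = 0.161).

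Metabolic and redox targets rose in 8 of 9 tested and Tigar, a regulator of glycolysis, fell by 0.81 (median of the list 1.51). Gpx1, glutathione peroxidase, rose from 385 to 1939 CPM (2.33 ± 0.14, adjusted p = 8.82e-16). Ak1, adenylate kinase, rose by 2.21 ± 0.22 and Ephx1, epoxide hydrolase, by 2.10 ± 0.26. Only 4 of these genes passed as higher without the GC trend, and the rise of Gpx1 was 1.28, while 5 rose without control replicate 1. Tigar did not pass without control replicate 2 (adjusted p = 0.0529). Of 5 DNA repair targets, 1 was higher and 3 were lower (median -0.84), and with DESeq2 the number lower was 1. Polk, a translesion polymerase, rose by 0.67 ± 0.20 (1.13 without the GC trend), whereas Xpc, Ercc5 and Rrm2b fell by 2.10, 1.09 and 0.84. Each of these 4 calls ended when 1 library was left out: Polk (adjusted p = 0.118) and Xpc (adjusted p = 0.186) without control replicate 2, Rrm2b (adjusted p = 0.0839) without control replicate 1, and Ercc5 (adjusted p = 0.0924) without PlaB replicate 2. The call of Rrm2b also ended without the GC trend (adjusted p = 0.363) and with DESeq2 (adjusted p = 0.0545), as did that of Ercc5 with DESeq2 (adjusted p = 0.0523).

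Of 4 secreted and other targets, 2 rose and 2 fell (median 0.41). Lif, the cytokine that keeps mouse stem cells undifferentiated, rose from 4.72 to 37.7 CPM (2.99 ± 0.33, adjusted p = 1.32e-09). Epha2 rose by 1.17 but not without the GC trend (0.15, adjusted p = 0.756), nor without control replicate 1 (adjusted p = 0.155) or PlaB replicate 1 (adjusted p = 0.082). Pml fell by 0.86, or by 1.70 without the GC trend, and its call ended without any 1 of the 4 libraries (adjusted p up to 0.166) and with DESeq2 (adjusted p = 0.132).

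Regulators upstream of p53 were lower more often than higher, with 1 of 17 higher and 9 lower (median -0.37). Atr, the kinase that senses stalled replication forks, fell from 68.5 to 20.1 CPM (-1.77 ± 0.23, adjusted p = 3.38e-08). Npm1, the nucleolar protein nucleophosmin, fell by 0.94 (0.51 without the GC trend) and Chek1, a checkpoint kinase downstream of ATR, by 0.92 (0.43). Hipk2, a kinase that phosphorylates p53, rose by 1.31 ± 0.39, a call that ended without the GC trend (0.72, adjusted p = 0.13) and without control replicate 2 (adjusted p = 0.0795). Genes that p53 represses indirectly, through p21 and the DREAM complex, fell in 9 of 20 and rose in 2 (median -0.34). Cenpf, a kinetochore gene, fell by 1.59, Top2a, topoisomerase II alpha, by 1.21 and Cdk1, the kinase that drives mitosis, by 1.17. Ccnb2, a mitotic cyclin, rose by 1.02 ± 0.15. Mybl2 rose by 0.80 ± 0.25 as counted, but its sign turned without the GC trend (-0.16, adjusted p = 0.62), and without control replicate 2 it did not pass (adjusted p = 0.0738).

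**Figure D3:**
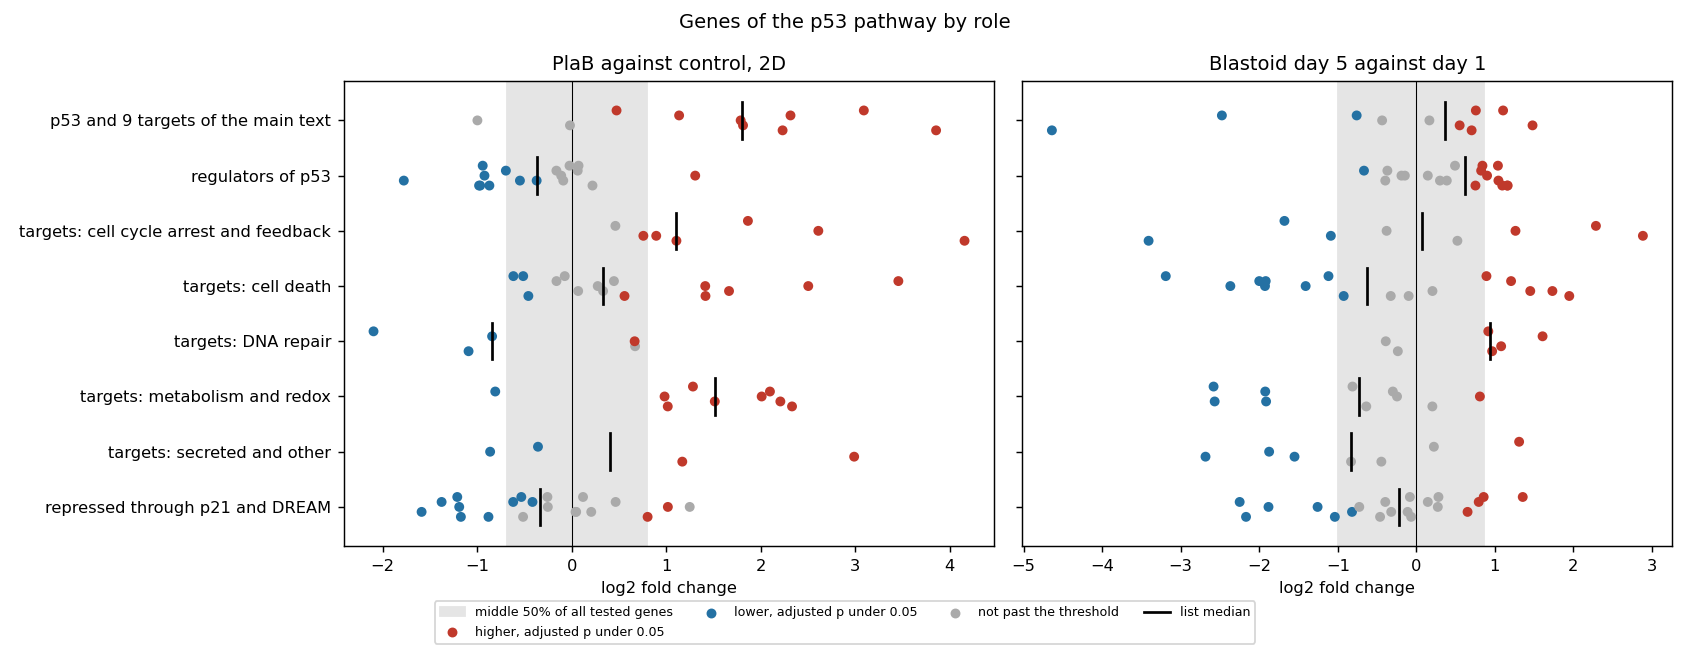
Log2 fold change of every tested gene of the p53 pathway by role, after PlaB (left) and on blastoid day 5 against day 1 (right); red and blue points passed an adjusted p of 0.05, grey points did not, black bars mark list medians and the grey band the middle 50% of all genes tested. After PlaB, metabolic targets (8 of 9) and arrest targets (6 of 7) lie to the right, and on day 5 the DNA repair targets (4 of 6) do.

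Over the blastoid days, the 10 genes did not follow one course. Of them, 8 differed among the 5 days, against 68.0% of all 15121 genes tested, and Ccng1 (adjusted p = 0.0545) and Sesn1 (adjusted p = 0.971) did not. The call of Ddit4l was narrow (adjusted p = 0.043) and held in 11 of 20 alternatives. It ended without day 1 replicate 2, any replicate of day 2, day 3 replicate 2, day 4 replicate 1 or day 5 replicates 1 and 2 in turn (adjusted p up to 0.267). Ccng1 passed with DESeq2 (adjusted p = 0.0246), without the GC trend (adjusted p = 0.0313) and without day 3 replicate 1, day 3 replicate 3 or day 5 replicate 3 (adjusted p down to 0.00865). From day 1 to day 5, 5 were higher and 3 lower, against 51.0% of all genes called (25.5% higher and 25.5% lower), and the median of the 10 was 0.36. Libraries of day 1 and day 5 did not overlap for 8 of the 10, against 58.2% of all genes.

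Trp53 fell by 2.48 ± 0.38 from day 1 to day 5 (adjusted p = 2.43e-05), and by 2.04 without the GC trend, while its negative regulator rose. Mdm2 gave 200, 218 and 209 CPM for day 1, 151, 209 and 206 for day 2, 157, 162 and 186 for day 3, 278, 228 and 258 for day 4, and 517, 371 and 401 for day 5. The day 5 libraries lay above those of every other blastoid day, and the rise from day 1 was 1.11 ± 0.20 (adjusted p = 0.000148). Plk2 fell and then rose: it gave 60.2, 72.6 and 58.5 CPM for day 1, 48.8, 44.4 and 44.7 for day 2, 20.8, 28.5 and 27.3 for day 3, 40.6, 34.8 and 35.9 for day 4, and 230, 131 and 150 for day 5. No neighbouring days overlapped, and day 5 was higher than day 1 by 1.48 ± 0.22 (adjusted p = 1.47e-05).

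Phlda3 had the widest range of the 10 genes, with its highest group mean 42.2 times its lowest. The 3 libraries of day 1 held 45.5, 55.9 and 21.6 CPM, and those that followed held 2.82, 1.66 and 1.33 CPM for day 2 and 0.825, 1.20 and 0.888 CPM for day 3. Levels of 7.86, 9.80 and 8.41 CPM for day 4 came before 1.04, 0.784 and 2.65 CPM for day 5. Days 1 and 4 thus stood apart from the other days, on which 3 to 17 counts were seen per library. From day 1 to day 5 Phlda3 fell by 4.64 (adjusted p = 8e-08), and with the GC trend removed it fell by 3.21.

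Cdkn1a and Btg2 both had their lowest blastoid group mean on day 3, as did Mdm2, Plk2, Phlda3 and Sesn1. Cdkn1a gave 195, 206 and 167 CPM for day 1, 116, 106 and 108 for day 2, 60.6, 53.3 and 14.9 for day 3, 131, 105 and 149 for day 4, and 116, 109 and 177 for day 5. Day 5 overlapped with day 1 (-0.44 ± 0.32, adjusted p = 0.258). Btg2 gave 31.9, 40.4 and 32.6 CPM for day 1, 31.2, 25.2 and 32.1 for day 2, 19.1, 17.1 and 14.2 for day 3, 85.2, 60.8 and 72.4 for day 4, and 55.4, 51.7 and 56.1 for day 5. Its day 4 and day 5 libraries lay above all earlier ones, and day 5 was higher than day 1 by 0.70 ± 0.20 (adjusted p = 0.00695). That call ended without day 1 replicate 1 (0.58, adjusted p = 0.0582) and with no filter on low counts (0.50, adjusted p = 0.19).

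Ccng1, Trp53inp1, Ddit4l and Sesn1 varied least. Group means of Ccng1 ran from 303 CPM on day 2 to 474 CPM on day 5, and the rise from day 1 (0.55 ± 0.22, adjusted p = 0.0393) ended without the GC trend (0.04, adjusted p = 0.887) and without any 1 of 5 libraries, namely all 3 of day 1 and replicates 1 and 2 of day 5. It also ended with RLE size factors (adjusted p = 0.0572) and with no filter (adjusted p = 0.407). Trp53inp1 was at 121 to 163 CPM on day 1, 118 to 127 CPM on day 2 and 190 to 293 CPM on days 3 to 5. Its rise from day 1 to day 5 (0.76 ± 0.21, adjusted p = 0.0047) ended without the GC trend (0.20, adjusted p = 0.332) with no filter (0.55, adjusted p = 0.116) and without day 1 replicate 1 (adjusted p = 0.0523). Ddit4l held group means of 22.9 to 25.3 CPM from day 1 to day 4 and was at 8.10, 11.8 and 19.5 CPM on day 5. Its fall of 0.76 from day 1 (adjusted p = 0.0245) ended without day 1 replicate 2 (adjusted p = 0.0521), day 5 replicate 1 (-0.50, adjusted p = 0.147) or day 5 replicate 2 (adjusted p = 0.0769), and it was -1.16 without day 5 replicate 3. Sesn1 kept group means between 12.2 and 13.5 CPM on all 5 days.

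Between neighbouring days, 1, 5, 4 and 4 of the 10 genes passed at the successive steps. From day 1 to day 2, 1 of 10 passed (Phlda3, -4.38 ± 0.40, adjusted p = 4.21e-06), against 6.96% of all genes (1.69% higher and 5.27% lower), and libraries did not overlap for 5 of 10, against 31.6%. With no filter on low counts Trp53 passed as well (-0.95, adjusted p = 0.00866). From day 2 to day 3, 1 was higher and 4 were lower, against 25.6% of all genes called (12.0% higher and 13.5% lower), and libraries did not overlap for 7, against 41.7%. Trp53 fell by 1.44 (adjusted p = 0.00799), Cdkn1a by 1.33, Plk2 by 0.82 and Btg2 by 0.78, whereas Trp53inp1 rose by 0.96 ± 0.21 (adjusted p = 0.00313). Leaving out day 3 replicate 3 gave -1.03 for Trp53 (adjusted p = 0.0109) and -0.94 for Cdkn1a (adjusted p = 0.00551). The call of Trp53inp1 ended without the GC trend (0.39, adjusted p = 0.1) and that of Btg2 without day 2 replicate 3 (adjusted p = 0.0534).

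From day 3 to day 4, 4 of the 10 were higher and 0 lower, against 27.9% of all genes called (15.6% higher and 12.3% lower), and libraries did not overlap for 5, against 41.9%. Phlda3 rose by 3.11 ± 0.45 (adjusted p = 6.46e-05), Btg2 by 2.10 ± 0.21 (adjusted p = 1.13e-06), Cdkn1a by 1.57 ± 0.33 (adjusted p = 0.00157) and Mdm2 by 0.58 ± 0.20 (adjusted p = 0.0359). The values were 2.01 for Phlda3 and 0.99 for Cdkn1a without the GC trend. Mdm2 did not pass without any 1 of 5 libraries, namely day 3 replicates 1 and 2 and all 3 of day 4 (adjusted p up to 0.113), nor with RLE size factors (adjusted p = 0.0572) or no filter (adjusted p = 0.0786), and it held in 3 of 11 alternatives. Trp53 had a log2 fold change of 0.80 ± 0.36 at this step and did not pass (adjusted p = 0.105), but it passed without day 3 replicate 1 (1.27, adjusted p = 0.0155) and with no filter (0.84, adjusted p = 0.0131). Among 47 other targets tested, 15 rose and 2 fell, with a median of 0.53 against -0.04 for all genes. Without the GC trend 10 rose and 4 fell, and 8 rose when day 4 replicate 3 was left out. At the same step 6 of 8 tested trophectoderm markers rose and 11 of 18 feeder markers fell, and their part in these changes was not tested.

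From day 4 to day 5, 2 of the 10 were higher and 2 lower, against 28.6% of all genes called (14.1% higher and 14.5% lower), and libraries did not overlap for 5, against 44.5%. Plk2 rose by 2.23 ± 0.22 (adjusted p = 2.66e-06) and Mdm2 by 0.79 ± 0.20 (adjusted p = 0.00622), whereas Phlda3 fell by 2.44 (adjusted p = 0.000421) and Ddit4l by 0.91 (adjusted p = 0.0156). Without the GC trend Phlda3 fell by 1.66, and with no filter Mdm2 did not pass (0.61, adjusted p = 0.114). The call of Ddit4l ended without day 4 replicate 1 (adjusted p = 0.0821), day 5 replicate 1 (adjusted p = 0.0993) or day 5 replicate 2 (adjusted p = 0.0594). Trp53 did not pass (-0.91 ± 0.37, adjusted p = 0.0669), but passed without day 4 replicate 1 (-1.15, adjusted p = 0.0382) without day 5 replicate 3 (-1.21, adjusted p = 0.0355) and with no filter (-1.08, adjusted p = 0.000605).

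The wider pathway was divided between day 1 and day 5. Of 47 other targets tested, 14 were higher, 18 lower and 15 not called, with a median of -0.38 against -0.02 for all genes. Over all genes 25.5% were higher and 25.5% lower. With no filter 9 of the other targets were higher in place of 14. Without the GC trend the balance turned, with 16 higher and 14 lower. DNA repair targets were higher in 4 of 6 and lower in 0, including Polk (1.61 ± 0.25) and Ercc5 (1.08 ± 0.19), a count of 2 without day 1 replicate 2 or with no filter. Arrest and feedback targets were split, with 3 of 8 higher and 3 lower. Ppm1d, a phosphatase that switches off the p53 response, rose from 12.7 to 58.7 CPM (2.29 ± 0.25, adjusted p = 5.26e-07) and Zmat3, an RNA-binding regulator of splicing, by 1.26 ± 0.25, while Sfn fell by 3.41 and Psrc1 by 1.68. Of 16 cell death targets, 5 were higher and 8 lower (5 lower without day 1 replicate 2 or day 5 replicate 1). Apaf1, the core of the apoptosome, rose by 1.73 ± 0.22 and Eda2r by 1.95 ± 0.29, whereas Siva1 fell by 1.92 and Bax, a pore-forming killer of mitochondria, by 2.37 (0.84 without the GC trend). Metabolic targets were lower in 4 of 10, led by Tigar (-2.58 ± 0.26) and Ak1 (-2.57 ± 0.37), and 1 was higher, Lpin1 (0.81). Lpin1 did not pass without day 1 replicate 1 (adjusted p = 0.111), day 1 replicate 2 (adjusted p = 0.0585) or day 5 replicate 3 (adjusted p = 0.0842). Nor did it pass with no filter (adjusted p = 0.151). Without the GC trend, 3 metabolic targets were higher.

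Of 7 secreted and other targets, 1 was higher and 3 were lower, a count of 1 lower without the GC trend. Pml fell by 1.87 (1.19 without the GC trend) and Trp53i13 by 2.69, the latter not without the GC trend (-1.20, adjusted p = 0.0637), and Tap1 rose by 1.31 (2.05) but not without day 1 replicate 3 (adjusted p = 0.112) or day 5 replicate 3 (adjusted p = 0.0937), nor with no filter (adjusted p = 0.0718). Regulators of p53 were higher in 9 of 18 and lower in 1. Crebbp, an acetyltransferase that acts on p53, rose by 1.16 ± 0.23 and Mdm4, the partner of MDM2, from 134 to 263 CPM (1.04 ± 0.22, adjusted p = 0.000507, or 0.66 without the GC trend). Chek2 fell by 0.67, which did not hold without day 1 replicate 3 (adjusted p = 0.0533), day 5 replicate 1 (adjusted p = 0.0774) or day 5 replicate 2 (adjusted p = 0.0804). Of 20 genes repressed through DREAM, 4 were higher, among them Mki67 (1.36 ± 0.23) and Top2a (0.86 ± 0.20), and 6 lower, among them Mybl2 (-2.17 ± 0.29, or -1.43 without the GC trend) and Plk1 (-1.88 ± 0.29, or -1.16). The number higher was 1 without the GC trend and 1 with no filter, and Top2a did not pass in either (adjusted p = 0.0512 and 0.0525).

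Blastoid levels were set against those of 2D culture in 1 fit over all 19 libraries, where culture form and count table change together and cannot be told apart. These comparisons share libraries with those above. Feeder markers differed as well: of 18 tested, 17 were lower on day 1 than after PlaB. Against control, 11 were lower on day 1 and 18 on day 5, and 0 were higher in any of the 3 comparisons. Their part in the differences below was not tested. Against PlaB-treated cells, day 1 blastoids had 2 of the 10 genes higher and 6 lower, against 38.9% of 16304 genes called (21.9% higher and 17.0% lower). Libraries did not overlap for 9 of the 10, against 62.5% of all genes. Mdm2 was lower on day 1, with a log2 fold change of -3.22 ± 0.22 (adjusted p = 1.02e-10), as were Plk2 (-2.48), Btg2 (-2.39), Ddit4l (-2.05), Trp53inp1 (-1.18) and Ccng1 (-0.92). Trp53 was higher by 2.04 ± 0.44 (adjusted p = 0.000939) and Sesn1 by 1.33 ± 0.36 (adjusted p = 0.0053), although Sesn1 did not pass without PlaB replicate 2 (adjusted p = 0.0985). Cdkn1a (-0.40, adjusted p = 0.377) and Phlda3 (0.93, adjusted p = 0.0601) did not pass. Without the GC trend Cdkn1a was lower (-0.88, adjusted p = 0.017), and without day 1 replicate 3 (1.23, adjusted p = 0.0115) or with no filter (1.01, adjusted p = 0.0415) Phlda3 was higher.

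Against untreated cells, day 1 blastoids had 3 genes higher and 3 lower, against 41.8% of all genes called (22.7% higher and 19.1% lower). Libraries did not overlap for 7 of the 10, against 65.1% of all genes. Phlda3 was higher by 4.80 ± 0.53 (2.73 without the GC trend), Trp53 by 3.18 ± 0.46 (2.36) and Cdkn1a by 1.38 ± 0.37, while Ccng1 (-0.94), Trp53inp1 (-0.70) and Plk2 (-0.67) were lower. The Cdkn1a call ended without the GC trend (0.38, adjusted p = 0.355) and without control replicate 1 (1.01, adjusted p = 0.123). Those of Ccng1 (-0.27, adjusted p = 0.312) and Trp53inp1 (0.05, adjusted p = 0.873) ended without the GC trend, and the sign of Trp53inp1 turned. Trp53inp1 did not pass without control replicate 1 either (adjusted p = 0.111), nor with no filter (adjusted p = 0.065). Plk2 did not pass without control replicate 2 (adjusted p = 0.242), day 1 replicate 1 (adjusted p = 0.0581) day 1 replicate 3 (adjusted p = 0.0558) or with no filter (adjusted p = 0.0992). Mdm2 stood at 209 CPM on day 1 and at 228 CPM in untreated cells, with overlapping libraries (-0.13 ± 0.22, adjusted p = 0.672).

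Against untreated cells, day 5 blastoids had 2 genes higher and 0 lower, against 33.5% of all genes called (18.0% higher and 15.5% lower). Libraries did not overlap for 5 of the 10, against 58.4% of all genes. Mdm2 was higher by 0.92 ± 0.22 (adjusted p = 0.0027) and Plk2 by 0.75 ± 0.24 (adjusted p = 0.0161). Neither passed without control replicate 1 (adjusted p = 0.0787 for Mdm2 and 0.214 for Plk2), and Plk2 also failed to pass without control replicate 2 (adjusted p = 0.0506) or day 5 replicate 1 (adjusted p = 0.114). Other calls appeared when 1 library was left out: Cdkn1a higher without control replicate 2 (1.39, adjusted p = 0.048; with no filter 0.91, adjusted p = 0.0103), Ccng1 lower without day 5 replicate 1 (-0.64, adjusted p = 0.0465) and Ddit4l lower without day 5 replicate 3 (-0.98, adjusted p = 0.0141).

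**Figure D4:**
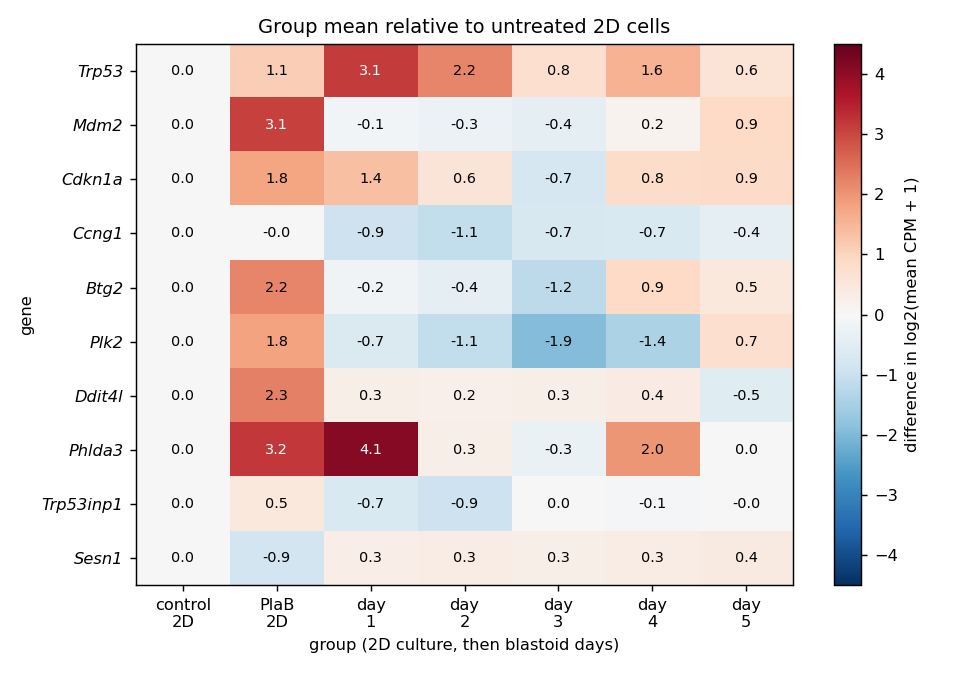
Difference in log2(mean CPM + 1) of each group from untreated 2D cells, for each of the 10 genes (red higher, blue lower). Mdm2, Btg2, Plk2 and Ddit4l are highest in PlaB-treated 2D cells, whereas Trp53 and Phlda3 are highest on blastoid day 1, and Sesn1 is lowest after PlaB.

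The order of the 7 groups differed between genes. Mdm2, Cdkn1a, Btg2, Plk2, Ddit4l and Trp53inp1 had their highest group mean in PlaB-treated 2D cells, and for each of them no library of the next group overlapped. Trp53 and Phlda3 were highest on day 1, though for Phlda3 day 1 and PlaB libraries overlapped. Ccng1 was highest in the 2D groups, which overlapped with each other, and Sesn1 had its lowest mean after PlaB, below all other groups without overlap.

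The genes whose levels ran most like those of 3 of the 10 were ranked by Pearson's r of log2 CPM over the 19 libraries, a description in which the points share library scaling, depth and base composition. For Trp53 they were Chaf1b (r = 0.975), a histone chaperone of DNA replication, Aurka (0.972), a mitotic kinase, Tubb4b (0.968) and Stip1 (0.967). For Mdm2 they were Olfr458 (0.929), Tas2r126 (0.918), Dusp10 (0.912) and Mtf1 (0.911). Mdm2 was at 1898 and 1983 CPM in the PlaB libraries and at or below 517 CPM in all others. The weight of the PlaB libraries in these values of r was not tested. For Cdkn1a they were Capzb (0.950), Psme1 (0.940), Ndufaf3 (0.938) and Capg (0.935).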

How the data were processed

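The authors deposited 2 tables of raw read counts per gene symbol, which hold the 2D and the blastoid libraries. Per the submitters' processing notes, STAR 2.7.10b, HTSeq 0.13.5 and the genome build mm10 were used. Neither the release of the annotation nor the strand option is given in the sources used here. Columns were assigned to samples by their titles. Gene coordinates, exon lengths and GC content came from GENCODE M21 (GRCm38), in which 53669 of 54352 symbols matched 1 gene. The GC content of a gene is that of its longest transcript.

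Counts were tested with edgeR 4.0.16 in R 4.3.3 (TMM scaling, filterByExpr at a count of 10 and a total of 15, robust quasi-likelihood F-test). Benjamini-Hochberg adjustment ran over all genes of a fit, and the threshold was 0.05. The 2D libraries (11183 genes), the blastoid libraries (15121 genes) and all libraries together (16304 genes) were fitted separately, and the scripts were tested on simulated data. Printed CPM are TMM-scaled over all 19 libraries; fold changes come from the fit of the comparison. Intervals and errors cover the spread between libraries only.

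Alternatives were RLE size factors, DESeq2 1.42.0, no filter other than a total above 0, a replicate block, a lowess trend of log2 CPM (prior count 2) on GC content (span 0.3) removed as an offset, and leaving out each library. Where this left 1 library in a 2D group, it was assumed to vary like the other libraries of the fit. The same alternatives for genes and lists outside the 10 genes were added after seeing the data.

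The 10 genes and all lists were chosen with earlier results of these data known. Besides the 10 genes, the text names, from each list of the pathway, up to 3 genes per direction with the smallest adjusted p after PlaB and up to 2 between days 1 and 5, and the 4 genes most like Trp53, Mdm2 and Cdkn1a, without numbered gene models. Values of 1 other gene that this rule selects are not reported here.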

Additional observations from a re-analysis of the deposited data

How the results depend on the processing

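The number of the 10 genes that passed changed with the processing, by more in some comparisons than in others. Among values that passed in the reported fit or in the alternative, the sign turned only with the GC trend removed. Signs of values near 0 that passed in neither also varied. With no filter on low counts, 5 of the 10 passed between days 1 and 5 in place of 8, and 2 between days 1 and 2 in place of 1, where more genes were tested. Without the GC trend, 3 passed between day 1 and control cells in place of 6, and the signs of Ccng1 after PlaB (0.48), of Trp53inp1 from day 3 to day 4 (0.55, adjusted p = 0.0265) and between day 1 and control (0.048) turned, as did that of Mybl2 after PlaB (-0.16). Leaving out 1 library gave 7 to 9 genes after PlaB, 5 to 8 for day 5 against day 1, 1 to 1 for day 2 against day 1, 4 to 5 for day 3 against day 2, 3 to 4 for day 4 against day 3 and 3 to 5 for day 5 against day 4. It gave 7 to 9 for any difference among days, 7 to 9 for day 1 against PlaB, 4 to 6 for day 1 against control and 0 to 3 for day 5 against control, where 0 passed without control replicate 1. The cause was not tested.

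Replicates share only a number: same-numbered libraries had correlations of their deviations from group means between -0.262 and 0.179 in blastoids, over 0.1 in 4 of 30 pairs, and of -0.018 in 2D. With a replicate block, 8 genes passed after PlaB, 7 for day 5 against day 1, 1, 5, 3 and 4 for the steps between neighbouring days, 7 for any difference among days, 8 for day 1 against PlaB, 6 for day 1 against control and 2 for day 5 against control. Phlda3 and Sesn1 rest on few counts, with 3 to 17 and 10 to 44 per library in their low groups.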

Other observations

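Paralogues of the 10 genes moved in both directions. After PlaB, 4 of 11 tested paralogues rose, 2 fell (1 with DESeq2) and 5 did not pass (median 0.27), against 25.9% higher and 25.8% lower over all genes. Phlda1 rose from 19.2 to 105 CPM (2.45 ± 0.20, or 1.22 without the GC trend) and Phlda2, an imprinted gene of placental growth, by 1.83 ± 0.17 (0.85). Sesn2 rose by 2.01 ± 0.42 as counted but did not pass without the GC trend (0.80, adjusted p = 0.126). Ccng2 fell by 0.96, against -0.02 for Ccng1, and by 0.55 without the GC trend. Sesn3 fell by 0.71, a call that ended without any 1 of the 4 libraries (adjusted p up to 0.285) and without the GC trend (adjusted p = 0.245).

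From blastoid day 1 to day 5, 6 of 12 tested paralogues were higher and 1 was lower (10 higher without the GC trend), against 25.5% in each direction over all genes. Cdkn1c, an imprinted gene of the same inhibitor family as Cdkn1a, rose from 5.04 to 111 CPM (4.58 ± 0.32, adjusted p = 1.1e-08, edgeR), whereas Cdkn1a had a log2 fold change of -0.44. Ccng2 rose by 2.19 ± 0.39, and Phlda2 fell by 1.87 (1.12 without the GC trend). Differences between a gene and its paralogue were not tested.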
